A study of Mus musculus with 4 samples.

Results

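Heat shock proteins and their cochaperones keep other proteins folded, and the genes of this system described here are those for the HSP90, HSP70 with HSP110, HSP60 with HSP10 and small heat shock protein families, for the J-domain proteins of the DNAJA, DNAJB and DNAJC families, and for the BAG cochaperones. They were chosen by symbol alone, with Cryab and Bag1 to Bag6 added by name, and 79 of the 23420 genes counted met that rule. The series measured polyadenylated RNA in 4 hearts, all of 1 group: wild-type C57BL/6J mice, labelled male and 12 weeks old. The tissue label names the whole heart, but per the labels' protocols the RNA came from frozen tips of the ventricles. There is no treated or control group, so the values are set against each other gene by gene within a heart, or heart by heart. Levels are given in CPM, the count scaled to a total of 1000000 gene counts in each heart, unless stated per kilobase of exon. Gene positions are from GENCODE M21 on GRCm38.

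HSP70 proteins bind exposed hydrophobic stretches of client proteins in a cycle driven by ATP. J-domain proteins deliver clients and trigger ATP hydrolysis, while HSP110 and BAG proteins exchange the nucleotide and so release the client. HSP90 completes the folding of kinases, receptors and, in muscle, myosin, and the HSP60 and HSP10 chaperonin folds proteins in the mitochondrial matrix. Small heat shock proteins hold unfolding clients without ATP, and in cardiomyocytes several of them bind to Z discs, titin, filamin and desmin. The transcription factor HSF1 switches on many of these genes after heat or other stress through heat shock elements, which are alternating GAA and TTC units. A separate set in the endoplasmic reticulum answers the unfolded protein response through endoplasmic reticulum stress elements.

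The sequences that bear on the genes described below are promoter windows of RefSeq on GRCm38.p6, each running from 250 bases before to 50 bases after an annotated start. A window was found for 63 of the 79 genes. A heat shock element of 3 units, GAANNTTCNNGAA or TTCNNGAANNTTC, was searched on both strands and occurred in the windows of 4 of those 63 genes, which were Dnajb6, Hspd1, Hspe1 and Hsph1, against 0.662% of all 27025 genes with a window. The shorter pair of units, GAANNTTC or TTCNNGAA, which every 3-unit match also contains, occurred for 17 of the 63, against 17.0% of all genes. The endoplasmic reticulum stress element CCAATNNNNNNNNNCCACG or its reverse complement occurred for 3 of the 63, Hspa5, Hsp90b1 and Dnajc3, against 0.137% of all genes. The cyclic AMP response element TGACGTCA occurred for 1, Dnajc27, against 2.03%. A match describes letters in the window and is not shown to be a bound site.

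The windows with a 3-unit heat shock element are shown with the matched units in capitals. The first lies between Hspe1 and Hspd1, which are transcribed away from each other, and its window of chr1:55087898-55088197 on the plus strand overlaps that of Hspd1. Its 2 overlapping matches begin 89 and 84 bases before the start of Hspe1. The Hsph1 window is chr5:149636287-149636586 on the minus strand, and its match begins 36 bases after the start. That of Dnajb6 is chr5:29735648-29735947 on the plus strand, with a match that begins 46 bases before the start. Their RNA did not share an order of hearts: Hspd1, Hspe1 and Hsph1 were highest in heart 3, where Dnajb6 was lowest, and with Rn45s left out of the total Hspe1 was no longer highest there.
Hspe1: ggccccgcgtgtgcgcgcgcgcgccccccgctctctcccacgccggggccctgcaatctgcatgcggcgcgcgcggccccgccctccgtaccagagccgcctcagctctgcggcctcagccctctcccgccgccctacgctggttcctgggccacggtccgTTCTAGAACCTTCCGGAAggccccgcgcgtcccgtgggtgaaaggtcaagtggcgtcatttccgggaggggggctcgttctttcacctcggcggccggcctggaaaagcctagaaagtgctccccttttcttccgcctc
Hsph1: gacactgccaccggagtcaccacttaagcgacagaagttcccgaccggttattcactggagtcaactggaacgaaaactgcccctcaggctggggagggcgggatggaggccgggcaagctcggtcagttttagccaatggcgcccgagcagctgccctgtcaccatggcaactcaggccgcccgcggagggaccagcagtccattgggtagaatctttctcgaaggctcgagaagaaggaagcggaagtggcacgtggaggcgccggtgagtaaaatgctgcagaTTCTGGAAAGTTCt
Dnajb6: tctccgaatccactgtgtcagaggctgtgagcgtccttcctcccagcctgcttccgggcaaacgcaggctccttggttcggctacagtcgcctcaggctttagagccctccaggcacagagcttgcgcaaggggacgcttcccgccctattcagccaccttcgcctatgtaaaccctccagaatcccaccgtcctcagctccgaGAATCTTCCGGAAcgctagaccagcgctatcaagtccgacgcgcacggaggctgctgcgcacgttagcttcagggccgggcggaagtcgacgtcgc

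The windows with an endoplasmic reticulum stress element are shown for Hspa5, Hsp90b1 and Dnajc3, 3 chaperones of that compartment, again with the matches in capitals. They lie at chr2:34771840-34772139 on the plus strand, chr10:86705395-86705694 on the minus strand and chr14:118937682-118937981 on the plus strand. The matches begin 65 bases before the start of Hspa5, 212 and 107 bases before that of Hsp90b1, and 105 bases before that of Dnajc3.
Hspa5: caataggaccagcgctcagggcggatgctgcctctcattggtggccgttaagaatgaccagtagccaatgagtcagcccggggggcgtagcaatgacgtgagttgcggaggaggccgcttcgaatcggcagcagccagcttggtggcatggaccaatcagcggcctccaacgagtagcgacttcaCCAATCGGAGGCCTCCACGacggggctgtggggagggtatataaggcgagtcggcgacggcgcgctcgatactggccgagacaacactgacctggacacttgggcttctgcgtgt
Hsp90b1: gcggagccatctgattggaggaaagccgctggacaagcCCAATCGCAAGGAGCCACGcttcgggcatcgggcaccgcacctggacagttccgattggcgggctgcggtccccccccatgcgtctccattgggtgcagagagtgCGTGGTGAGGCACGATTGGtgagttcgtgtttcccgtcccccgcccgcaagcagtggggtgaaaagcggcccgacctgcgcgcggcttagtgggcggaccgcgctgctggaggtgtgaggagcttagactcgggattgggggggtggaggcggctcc
Dnajc3: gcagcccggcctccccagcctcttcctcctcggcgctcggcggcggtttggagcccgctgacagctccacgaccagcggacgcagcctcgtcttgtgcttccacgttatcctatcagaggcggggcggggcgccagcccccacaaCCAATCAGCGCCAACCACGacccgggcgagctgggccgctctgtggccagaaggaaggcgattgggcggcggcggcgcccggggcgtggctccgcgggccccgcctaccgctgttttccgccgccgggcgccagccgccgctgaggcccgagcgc

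Library depth was between 10523709 and 15359296 gene counts, lowest in heart 3. The precursor of ribosomal RNA, Rn45s, took 11.9% of counts in heart 3 and up to 14.1% in heart 2. Markers of cardiomyocytes (8 genes) summed to 101979 ± 5257 CPM (SD, n = 4), against 999 ± 13.9 CPM for 6 endothelial, 902 ± 54.4 CPM for 6 fibroblast, 820.3 ± 39.2 CPM for 6 smooth muscle and pericyte and 178 ± 13.1 CPM for 5 macrophage markers. The atrial myosin light chain Myl7 had 1, 7, 3 and 2 counts in hearts 1 to 4. Of the other atrial genes listed, Sln had 1, 3, 0 and 2 counts, but Myl4 averaged 2.93 CPM and Nppa 139.7 CPM. Of 8 fast skeletal muscle genes only Ckm and Acta1, which the heart also makes, and Tnni2 reached a mean of 1 CPM. Sex-linked transcripts went against the male label in hearts 2 and 3: Xist, the RNA of the inactive X, had 5, 1897, 1806 and 19 counts in hearts 1 to 4 and the Y-linked Ddx3y 341, 0, 1 and 437. The tests of spread are therefore also given without them, and levels are given heart by heart. In bulk tissue, fewer cells of a type and less RNA per cell cannot be told apart.

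Most of the chaperone genes were detected in the heart, and a handful of them carried most of the RNA. Of the 79 genes, 67 (84.8%) averaged 1 CPM or more, against 12360 of 23420 genes (52.8%) in the whole series. All 79 together summed to 13599, 12631, 14627 and 13898 CPM in hearts 1 to 4, or 1.37 ± 0.0827% of gene counts (SD, n = 4). Heart 3 was the highest and heart 2 the lowest, and they differed 1.16-fold. The 5 most abundant genes, Hspb7, Cryab, Hsp90ab1, Hspa8 and Hspb6, made up 65.7% of that sum. By family, small heat shock proteins held 48.5%, HSP70 and HSP110 16.9%, HSP90 14.9%, BAG genes 6.17%, the 28 DNAJC genes 5.65%, the 4 DNAJA genes 3.32%, the 13 DNAJB genes 2.90% and HSP60 with HSP10 1.68%. These shares of counts are not corrected for gene length.

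**Figure D1:**
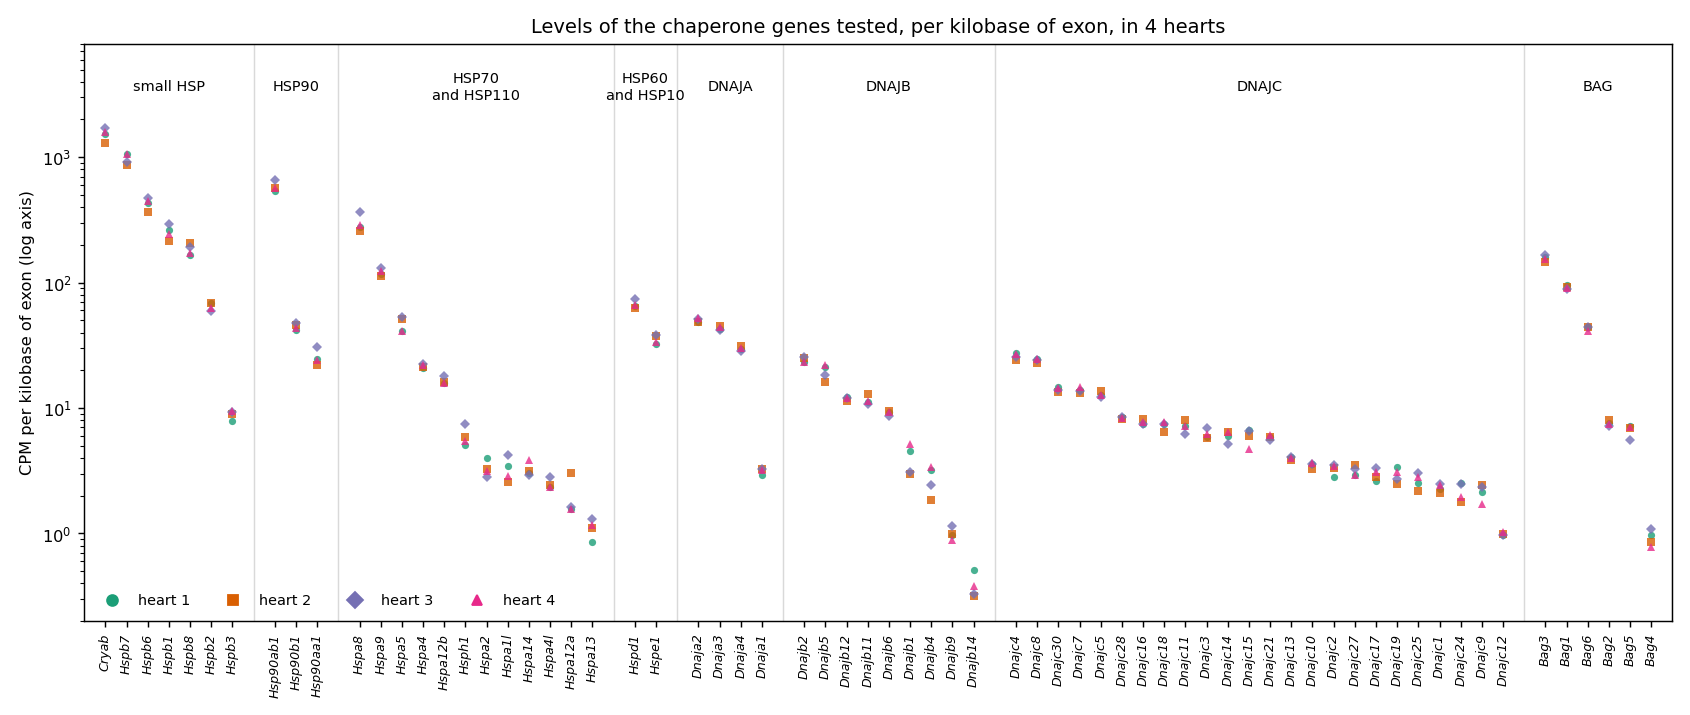
Level per kilobase of exon on a log axis (CPM per kilobase) for the 67 genes that averaged 1 CPM or more, grouped by family, with 1 point per heart. Cryab is highest at 1535 and Dnajb14 lowest at 0.385 CPM per kilobase on average, and within a gene the 4 hearts lie close together.

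Small heat shock proteins were the most abundant family, and the muscle forms led it. Hspb7 (chromosome 4, 141420779 to 141425311), which binds filamin C and actin in heart and skeletal muscle, had 2917, 2417, 2547 and 2917 CPM in hearts 1 to 4, with hearts 1 and 4 above hearts 2 and 3. Cryab (chromosome 9, 50751325 to 50756636), the alpha B-crystallin that protects desmin and titin, had 2277, 1910.5, 2547 and 2347 CPM, with heart 3 the highest and heart 2 the lowest. Hspb6 (chromosome 7, 30552178 to 30555443), known as Hsp20 and a target of protein kinase A, had 991, 835, 1085 and 1028 CPM in the same order of hearts as Cryab. Among all genes these 3 ranked 29, 32 and 92 by mean CPM.

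Per kilobase of exon the order at the top changed. Cryab stood at 1535 ± 179.8 CPM per kilobase and Hspb7 at 975 ± 92.8 (SD, n = 4), so that Hspb7 was lower than Cryab in 4 of 4 hearts, with a log2 ratio of -0.65 ± 0.17. By counts alone Hspb7 was the higher, with a log2 ratio of 0.25. Hspb6 stood at 428 ± 46.7, Hspb1 at 254 ± 32.5 and Hspb8 at 185 ± 19.2 CPM per kilobase. Hspb1, the actin-binding Hsp25 of mice, had 273, 222, 302 and 252 CPM, highest in heart 3 and lowest in heart 2. Hspb8, which works with Bag3 to send damaged filamin to autophagy, had 323, 406, 375 and 337 CPM and ran the other way, with hearts 2 and 3 above hearts 1 and 4.

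Other genes of the family were much lower. Hspb2, a binding partner of Hspb3 and of the myotonic dystrophy kinase, had 56.97, 57.3, 49.5 and 52.5 CPM. Hspb3 had 6.11, 7.04, 7.22 and 7.42 CPM. Cryab and Hspb2 lie next to each other on opposite strands of chromosome 9 and their exons overlap, so that 30.2% of the Hspb2 exon bases and 17.0% of those of Cryab are shared, and without strand such reads cannot be assigned. Even so Cryab stood 23.6-fold above Hspb2 per kilobase, with 18.8-fold in the lowest heart and 29.0-fold in the highest. Hspb9, a testis form, had 1, 4, 0 and 1 counts, and Hspb11, which despite its symbol is a part of the intraflagellar transport complex, had 10, 4, 5 and 8 counts.

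HSP90 was mainly its constitutive cytosolic form. Hsp90ab1 (chromosome 17, 45567775 to 45573271) had 1618, 1716, 1976 and 1719 CPM in hearts 1 to 4. The stress-inducible Hsp90aa1 had 96.0, 87.0, 120.5 and 94.2 CPM. Hsp90b1, the Grp94 of the endoplasmic reticulum, had 169.9, 187, 191 and 176 CPM. All 3 were highest in heart 3. Per kilobase Hsp90ab1 exceeded Hsp90aa1 23.3-fold, a log2 ratio of 4.54 ± 0.12 (SD, n = 4), in 4 of 4 hearts. This ratio is uncertain, because 58.5% of the 50-base windows of the Hsp90aa1 transcript also occur in transcripts of other annotated genes, against 4.49% for Hsp90ab1.

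HSP70 was mainly Hspa8, the constitutive cytosolic Hsc70 (chromosome 9, 40800984 to 40810087). It had 1187, 1115, 1585 and 1244 CPM in hearts 1 to 4, with heart 3 above the other hearts, which lay within 1115 to 1244 CPM. Hspa9, the mitochondrial mortalin that pulls proteins through the inner membrane (chromosome 18, 34937414 to 34954357), had 503, 491, 567 and 533 CPM. Hspa5, the BiP of the endoplasmic reticulum (chromosome 2, 34771970 to 34777547), had 174, 219, 227 and 175 CPM, with hearts 2 and 3 above hearts 1 and 4. Per kilobase the mean levels were 298 ± 48.4 for Hspa8, 121 ± 7.84 for Hspa9 and 47.0 ± 6.64 CPM per kilobase for Hspa5 (SD, n = 4), and Hspa9 exceeded Hspa5 2.60-fold in 4 of 4 hearts.

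The inducible HSP70 genes gave almost no reads. Hspa1a had 7, 11, 12 and 5 counts and Hspa1b 5, 6, 2 and 6 counts in hearts 1 to 4, at most 1.14 CPM. These copies are nearly identical, with 66.3% and 62.3% of their 50-base windows found in other genes, mostly in each other. Reads that aligned to more than 1 place made up 8.13 to 8.48% of listed reads and were not given to any gene, so both levels are uncertain. Hspa8 itself shared 74.8% of its windows with 13 other genes, of which 12 are pseudogenes. Per kilobase Hspa8 exceeded Hspa1b 2264-fold, but on 2 to 6 counts of Hspa1b the size is loose, between 1557-fold and 4348-fold in single hearts.

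The remaining genes of the family spanned a wide range. Among the HSP110 exchange factors, Hspa4 had 115, 118, 125 and 122 CPM. Hsph1 had 37.1, 42.6, 54.0 and 39.6 CPM and its window with a heat shock element is printed above. Hspa4l had 27.8, 28.7, 33.1 and 27.7 CPM. All 3 were highest in heart 3, and Hspa4 exceeded Hsph1 3.68-fold per kilobase in 4 of 4 hearts. Hspa12b, an atypical HSP70 of endothelial cells, had 58.5, 59.5, 65.9 and 58.6 CPM. Its relative Hspa12a (chromosome 19, 58795750 to 58943654) had 14.3, 27.7, 15.0 and 14.3 CPM, with heart 2 1.94-fold above the lowest heart and the other hearts close together. Hspa14, Hspa2, Hspa1l and Hspa13 averaged 13.2, 8.73, 8.08 and 7.57 CPM. Of the exon bases of Hspa1l, a gene best known from testis, 71.9% overlap the entry Gm10501, and its level is uncertain.

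Hspd1 encodes HSP60, the barrel of the mitochondrial chaperonin, and Hspe1 encodes HSP10, its lid. Hspd1 (chromosome 1, 55077835 to 55088243) had 173, 167, 196 and 176 CPM in hearts 1 to 4. Hspe1 (chromosome 1, 55088132 to 55091307) had 47.5, 55.1, 56.1 and 49.7 CPM, and both genes were highest in heart 3. Hspd1 exceeded Hspe1 1.91-fold per kilobase, a log2 ratio of 0.93 ± 0.12 (SD, n = 4). Both have many processed pseudogenes, and 44.8% of the windows of each occur elsewhere among annotated transcripts.

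**Figure D2:**
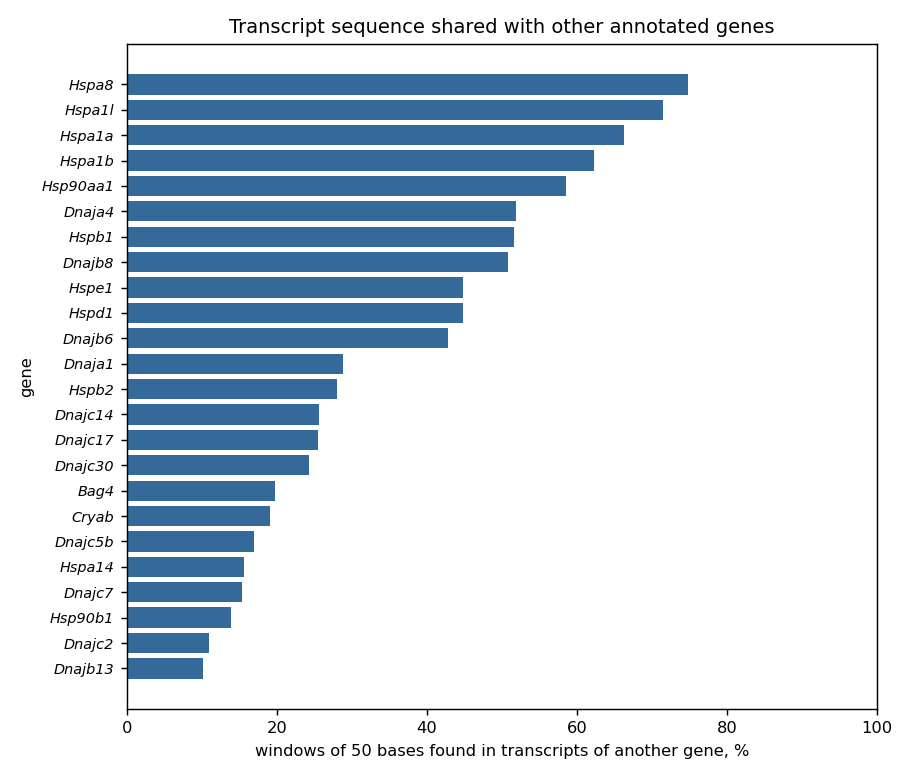
Share of 50-base windows of the longest protein-coding transcript of each gene that also occur in a transcript of another GENCODE gene, on either strand, for the genes above 10%. Hspa8 has the largest share, 74.8%, and Hspa1l, Hspa1a, Hspa1b and Hsp90aa1 follow. Reads from windows with copies elsewhere can align to more than 1 place. Other windows are shared because genes overlap, as for Hspa1l and Gm10501. How such reads were counted depends on annotation and counting mode, which are not given.

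J-domain proteins were numerous but individually modest. In the DNAJA family Dnaja3, the mitochondrial Tid1, had 168, 176, 164 and 173 CPM in hearts 1 to 4. Among the cytosolic forms that work with Hspa8, Dnaja2 had 143, 145, 153 and 156 CPM. Dnaja4 had 106, 112, 102 and 109 CPM and Dnaja1 25.0, 27.9, 28.2 and 27.7 CPM. Each of the 4 varied by 5.41% or less between hearts (coefficient of variation, SD over mean). Per kilobase Dnaja4, a form enriched in heart and skeletal muscle, exceeded Dnaja1 9.44-fold in 4 of 4 hearts, although 44.1% of the Dnaja4 exon bases overlap Wdr61 and 28.8% of the Dnaja1 windows occur in other genes.

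In the DNAJB family Dnajb5, Dnajb2 and Dnajb6 led by counts. Dnajb5 had 126, 95.8, 109 and 131 CPM in hearts 1 to 4. Dnajb2, a client-sorting form best known from neurons, had 99.0, 106, 109 and 98.8 CPM. Dnajb6, which is mutated in a limb girdle muscular dystrophy of humans, had 56.7, 57.8, 52.0 and 56.0 CPM. These 3 differ in order, with heart 4 highest for Dnajb5, heart 3 for Dnajb2 and heart 2 for Dnajb6. Dnajb1, the classic inducible HSP40, had 14.5, 9.63, 9.88 and 16.5 CPM. Its relative Dnajb4 had 28.1, 16.2, 21.4 and 29.6 CPM, and both had hearts 1 and 4 above hearts 2 and 3. Between Dnajb4 and Dnajb1 the order depended on the gene length used, with a log2 ratio of -0.54 ± 0.15 per kilobase of all exons, 0.20 per kilobase of the longest transcript and 0.91 by counts alone.

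The DNAJC family, which shares only the J domain, summed to 778, 769, 764 and 781 CPM in hearts 1 to 4, the lowest coefficient of variation of the 8 family sums at 0.975%. The most abundant by counts was Dnajc5, the cysteine string protein of secretory vesicles, at 87.7, 94.3, 85.9 and 88.9 CPM. Dnajc11 of the mitochondrial membrane had 76.3, 85.3, 66.2 and 76.9 CPM, highest in heart 2 and lowest in heart 3. Dnajc7, which binds both HSP70 and HSP90, had 68.1, 64.7, 66.4 and 71.0 CPM. Among mitochondrial forms, Dnajc15 had 43.3, 38.8, 42.4 and 30.9 CPM, lowest in heart 4. Dnajc19, a part of the import motor whose loss causes a dilated cardiomyopathy with ataxia in humans, had 13.6, 9.91, 10.9 and 12.4 CPM. Dnajc28 had the smallest coefficient of variation of the 67 genes, with 30.5, 29.4, 30.3 and 29.7 CPM and a coefficient of variation of 1.70%.

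Other DNAJC genes covered many compartments. In the nucleus and on ribosomes, the splicing-associated Dnajc8 averaged 61.5 ± 2.32, Dnajc21 of ribosome assembly 28.0 ± 1.07, the ribosome-bound Dnajc2 16.4 ± 1.60 and the histone chaperone Dnajc9 5.15 ± 0.766 CPM (SD, n = 4). Dnajc13, which works on endosomes, averaged 47.6 ± 1.37 CPM. Dnajc16, Dnajc18, Dnajc14, Dnajc4, Dnajc1 and Dnajc30 averaged between 23.5 CPM for Dnajc30 and 50 CPM for Dnajc16. Dnajc27, Dnajc25, Dnajc17 and Dnajc24 were lower, from 3.0 to 16.1 CPM. Dnajc21 had 28.2, 28.2, 26.5 and 29.0 CPM and Dnajc12, the partner of the aromatic amino acid hydroxylases, 4.37, 4.45, 4.37 and 4.56 CPM in hearts 1 to 4, and both lay within 1.10-fold over the 4 hearts.

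A further 8 J protein genes stayed under a mean of 1 CPM, with between 0 and 6 counts in any heart. Dnajb8 and Dnajc5b had 0 counts in all 4 hearts. The exact 95% Poisson interval of a count of 0 reaches up to 0.24 CPM in heart 4 and 0.35 CPM in heart 3, counting error only. Dnajb3, Dnajb7 and Dnajb13 had 1, 7 and 7 counts in sum, and Dnajc5g, Dnajc22 and the neuronal auxilin Dnajc6 had 1, 4 and 8.

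BAG genes were led by Bag3 (chromosome 7, 128523616 to 128546981), the scaffold that joins HSP70 to Hspb8 and whose mutation causes cardiomyopathy in humans. It had 413, 377, 427 and 398 CPM in hearts 1 to 4. Bag6, which guards proteins bound for membranes, had 273, 274, 277 and 255 CPM. Bag1, which links HSP70 to the proteasome, had 129, 124, 120.2 and 123 CPM. The coefficients of variation of these 3 lay between 2.89 and 5.33%. Bag2, an inhibitor of the ubiquitin ligase CHIP, had 23.2, 24.5, 22.0 and 22.7 CPM, Bag5 18.0, 17.2, 14.0 and 17.6 CPM and Bag4 6.80, 5.96, 7.70 and 5.47 CPM. Per kilobase Bag3 exceeded Bag1 1.71-fold in 4 of 4 hearts. Hspb8 stood 1.17-fold above its partner Bag3 per kilobase, a log2 ratio of 0.23 ± 0.20 (SD, n = 4), which was least in heart 1 at 0.04 and reversed to -0.17 by counts alone.

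**Figure D3:**
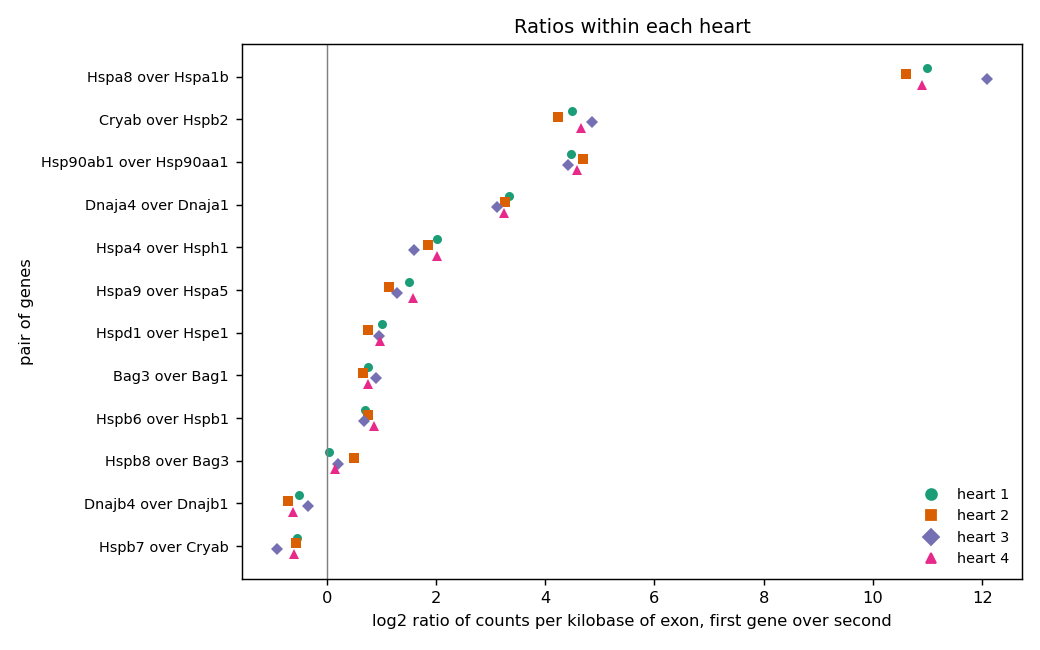
Log2 ratio of counts per kilobase of exon, first gene over second, for 12 pairs of genes, with 1 point per heart. Ratios range from -0.65 for Hspb7 over Cryab to 11.14 for Hspa8 over Hspa1b on average, and in each pair the 4 hearts lie on the same side of 0.

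For these ratios an exact permutation test that flips signs, two-sided, cannot go below p = 0.125 with 4 hearts. Each of the 12 pairs reached 0.125, and its Benjamini-Hochberg value over the 12 pairs was 0.125 too, so no pair could pass 0.05.

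The genes were then tested for a spread between hearts above that of other genes of like abundance, with edgeR's quasi-likelihood fit over all 12360 genes tested. None of the 67 chaperone genes was called at an adjusted p under 0.05, where 49 (0.396%) of all genes tested were. At an unadjusted p under 0.05 there were 11 of 67 (16.4%), against 5.96% of all genes tested. The median log2 variance ratio of the 67, the quasi-dispersion of a gene over that of the trend, was 0.19, against -0.23 over all genes tested. Leaving hearts out changed both the number and the genes. Without heart 2 there were 9 (721 of 12353 genes tested), with Hsp90ab1 not among the 11, and without heart 3 there were 7 (732 of 12365 genes), with Hspb8 not among the 11. Without heart 1 there were 11 (729 of 12370 genes) and without heart 4 there were 9 (722 of 12368 genes). Both sets held Hspb6, which was not among the first 11, and lacked Dnajc15, which was. Without heart 3 the median log2 variance ratio of the 67 was -0.59, against -0.39 over all genes tested. In hearts 1 and 4 alone there was 1, Dnajc15 (554 of 12348 genes), and in hearts 2 and 3 alone there were 8 (799 of 12360 genes). Of those 8, Dnajc11, Hspa1l and Hspb6 were not among the first 11. limma and DESeq2's dispersion outliers also called 0 of the 67. Without a filter on low counts, where 1.48% of 17447 genes were called, Dnajb4, Hspa12a and Hspa8 were called. The median coefficient of variation was 8.46% over the 67 genes and 9.60% over all genes tested, and 39 of the 67 lay under 10%, against 52.3% of all genes tested.

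**Figure D4:**
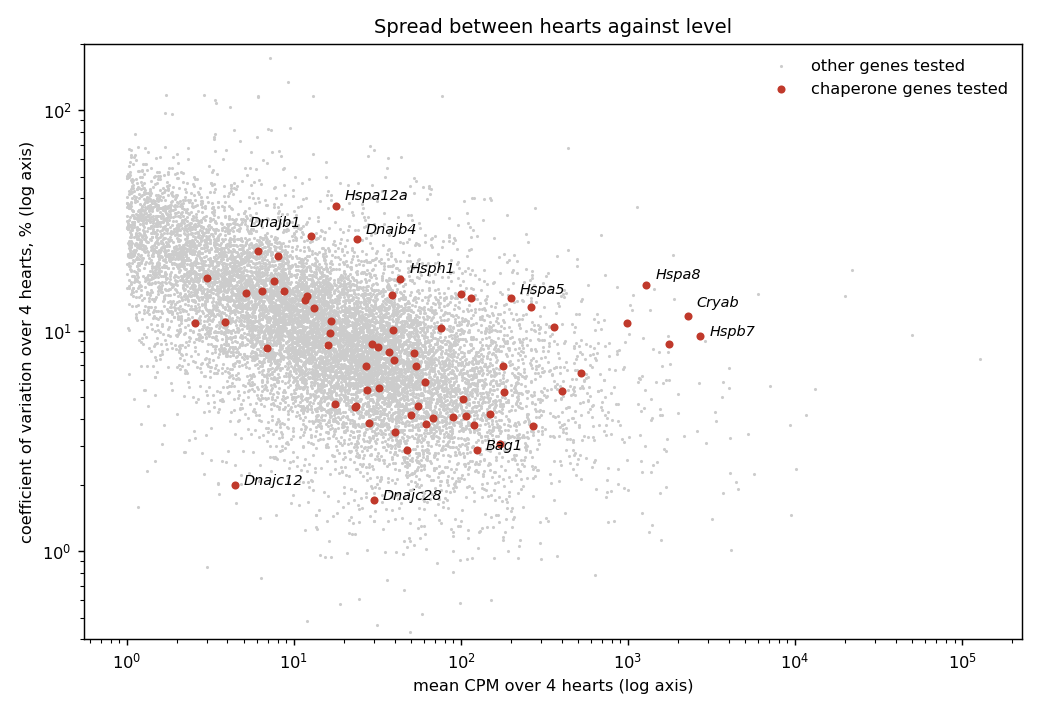
Coefficient of variation over 4 hearts (%) against mean CPM, both on log axes, for the 67 chaperone genes tested (red) and the other genes tested (grey). Hspa12a has the largest value among the 67, 37.0%, Dnajb1 and Dnajb4 follow at 27.0 and 26.0%, and Dnajc28 has the smallest, 1.70%.

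The 11 genes at an unadjusted p under 0.05 fell into different patterns over the hearts. Hspa12a, high in heart 2, had the largest variance ratio at 14.4 (edgeR adjusted p = 0.179). Without heart 2 its ratio was 0.221, but the heart left out was its highest, so this is no separate evidence. Dnajb4 followed at 9.73 (edgeR adjusted p = 0.367), then Hspa8 at 8.68 (edgeR adjusted p = 0.428), Hspa5 at 6.65 (edgeR adjusted p = 0.561) and Hsph1 at 6.07 (edgeR adjusted p = 0.620). The other 6 were Dnajb1, Hsp90aa1, Hspb1, Dnajc15, Cryab and Dnajb5, with ratios from 6.06 to 4.69. The least variable were Dnajc12, Dnajc21, Dnajc28, Dnaja3 and Bag1, at 0.00606 to 0.175.

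Among HSP90, HSP70, HSP110 and HSP60 genes, heart 3 was the highest for most. Of the 67 genes 28 were highest in heart 3, against 22.9% of all genes tested, and among the 17 tested genes of the HSP90, HSP70, HSP110, HSP60 and HSP10 families 14 were. With TMM factors the 28 became 36 (28.7% of all genes tested) and with Rn45s left out of the total 23 (20.1%), while the 14 of 17 became 14 and 12. With 1 of the other hearts left out, 30 to 32 of the 67 were highest in heart 3. Genes already highest there stay so, which means this count could not fall below 28 and is no separate evidence. As for the lowest value, 28 of the 67 genes had it in heart 2, against 30.7% of all genes tested. Hsp90aa1 was 1.38-fold, Hspa8 1.42-fold and Hsph1 1.46-fold higher in the highest heart, which was heart 3, than in the lowest. Without heart 3 their variance ratios were 0.666, 0.806 and 1.06. The heart left out was the highest for each, so the lower ratios are no separate evidence. Hspa5, Cryab and Hspb1 were also highest in heart 3, and without it their ratios were 6.73, 4.25 and 3.53. In the J protein families 8 of 37 genes were highest in heart 3 (21.6%), but with TMM factors 15 of 37 (40.5%), against 28.7% of all genes tested, and with Rn45s left out 6.

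Genes that HSF1 is known to induce had their highest sum in heart 3. The 22 genes of that list, of which 5 are cochaperones outside the families described here, summed to 7254, 6959, 8501 and 7497 CPM in hearts 1 to 4. Its largest parts were Cryab and the constitutive Hsp90ab1 and Hspa8, at 2270, 1757 and 1283 CPM on average. Of the 20 tested, 15 were highest in heart 3 themselves, against 22.9% of all genes tested. With TMM factors there were 15 (28.7% of all genes tested) and with Rn45s left out of the total 13 (20.1%). Among the 15, Hsph1, Hspa4l, Hspa8, Hsp90aa1, Hsp90ab1, Hspd1 and Hspe1 were already counted above by family as highest in heart 3. The counts for the families and for this list therefore overlap and are no separate results. None of the 20 was called in edgeR's fit, against 0.396% of all genes tested, and 7 had an unadjusted p under 0.05, against 5.96%. Of those 7, Hspa8, Hsph1, Hsp90aa1, Hspb1 and Cryab were highest in heart 3, while Dnajb1 and Dnajb4 were higher in hearts 1 and 4 than in hearts 2 and 3. The median log2 variance ratio of the 20 was 1.26, against -0.23 over all genes tested. Heart 3 also had the highest sum of cardiomyocyte markers, 99408, 99980.3, 109825 and 98702 CPM in hearts 1 to 4, and the lowest depth and Rn45s share. That sum followed the myosin gene Myh6, which had 47535, 48453, 56973 and 46666 CPM, and without it the other 7 markers summed to 51872, 51527, 52853 and 52035 CPM. The part of these in the result was not tested. Hsf1 itself had 43.5, 48.6, 46.4 and 41.3 CPM, and Hsbp1, its binding protein, 61.2, 61.2, 64.4 and 64.8 CPM. Hsf2, a related factor, had 5.34, 6.39, 6.27 and 4.62 CPM. Of 4 factor genes tested, edgeR gave 0 an unadjusted p under 0.05.

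Several DNAJB genes instead were higher in hearts 1 and 4 than in hearts 2 and 3. This held for Dnajb1, Dnajb4, Dnajb5, Dnajb12 and Dnajb14, 5 of the 9 tested in that family. Over the 67 genes as a whole it held for 15 (22.4%), no larger a share than the 23.7% of all genes tested. The largest gap was in Dnajb4, 1.82-fold between its highest and lowest heart, then Dnajb1 at 1.71-fold and Dnajb14 at 1.62-fold. With TMM factors 4 of the 9 kept this order, all but Dnajb12, and 10 of the 67 (14.9%) had it, against 19.2% of all genes tested. Immediate early genes, 24 genes such as Fos and Jun that respond fast to stimuli, ran in the same order, at 928, 519, 649 and 873 CPM in hearts 1 to 4. Of 21 tested, 5 were called, Fos, Zfp36, Btg2, Dusp1 and Jun, against 0.396% of all genes tested. Without heart 2 all 5 were called, without heart 3 all but Jun (edgeR adjusted p = 0.0759), and in hearts 1 and 4 alone none was, where edgeR called 0 of 12348 genes. The split in sex-linked transcripts also separates these pairs of hearts. The part of both in the result was not tested. In hearts 1 and 4 alone the variance ratios of Dnajb4 and Dnajb5 were 0.218 and 0.302, and that of Dnajb1 1.21. Over all genes tested the median log2 variance ratio was -1.02 there. Hearts 2 and 3, left out here, held the lowest values of each of these genes, so the ratios are no separate evidence.

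Chaperones of the endoplasmic reticulum did not share 1 order of hearts. Of the 12 genes listed for that compartment, Hspa5, Hsp90b1 and Dnajb9 were higher in hearts 2 and 3 than in hearts 1 and 4, while Dnajb12, Dnajb14 and Dnajc10 were higher in hearts 1 and 4, and of these 3 Dnajb14 alone kept that order with TMM factors. Heart 3 was the highest for 7 of the 12, against 22.9% of all genes tested. It was the highest for 9 with TMM factors (28.7% of all genes tested) and for 6 with Rn45s left out of the total (20.1%). Hspa5 and Hsp90b1, whose windows with a stress element are printed above, were highest in hearts 3 and 2, while Dnajc3, which has one too, was highest in heart 3 alone at 30.0, 29.9, 35.6 and 31.7 CPM. Dnajb11, a cofactor of BiP, had 35.9, 41.6, 34.9 and 36.6 CPM and was highest in heart 2. In all, 14 of the 67 genes had hearts 2 and 3 as the highest, against 15.6% of all genes tested. The 12 genes listed for the compartment summed to 572, 634, 654 and 586 CPM, and 0 were called in edgeR's fit, against 0.396% of all genes tested. At an unadjusted p under 0.05 there was 1, Hspa5, against 5.96% of all genes tested. The part of the sex-linked split in this order was not tested. In hearts 1 and 4 alone the ratio for Hspa5 was 0.00785. Hearts 2 and 3, left out here, were the highest for Hspa5, so this ratio is no separate evidence. Outside the families described here, Hyou1, an exchange factor for BiP, had 59.4, 100.3, 89.4 and 63.0 CPM (edgeR adjusted p = 0.133) and the lectin chaperone Calr 298, 361, 373 and 319 CPM, both higher in hearts 2 and 3, and Hyou1 was chosen after its values were seen. The 10 mitochondrial genes listed summed to 1114, 1105, 1187 and 1139 CPM, with Dnajc15 alone at an unadjusted p under 0.05, against 5.96% of all genes tested.

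**Figure D5:**
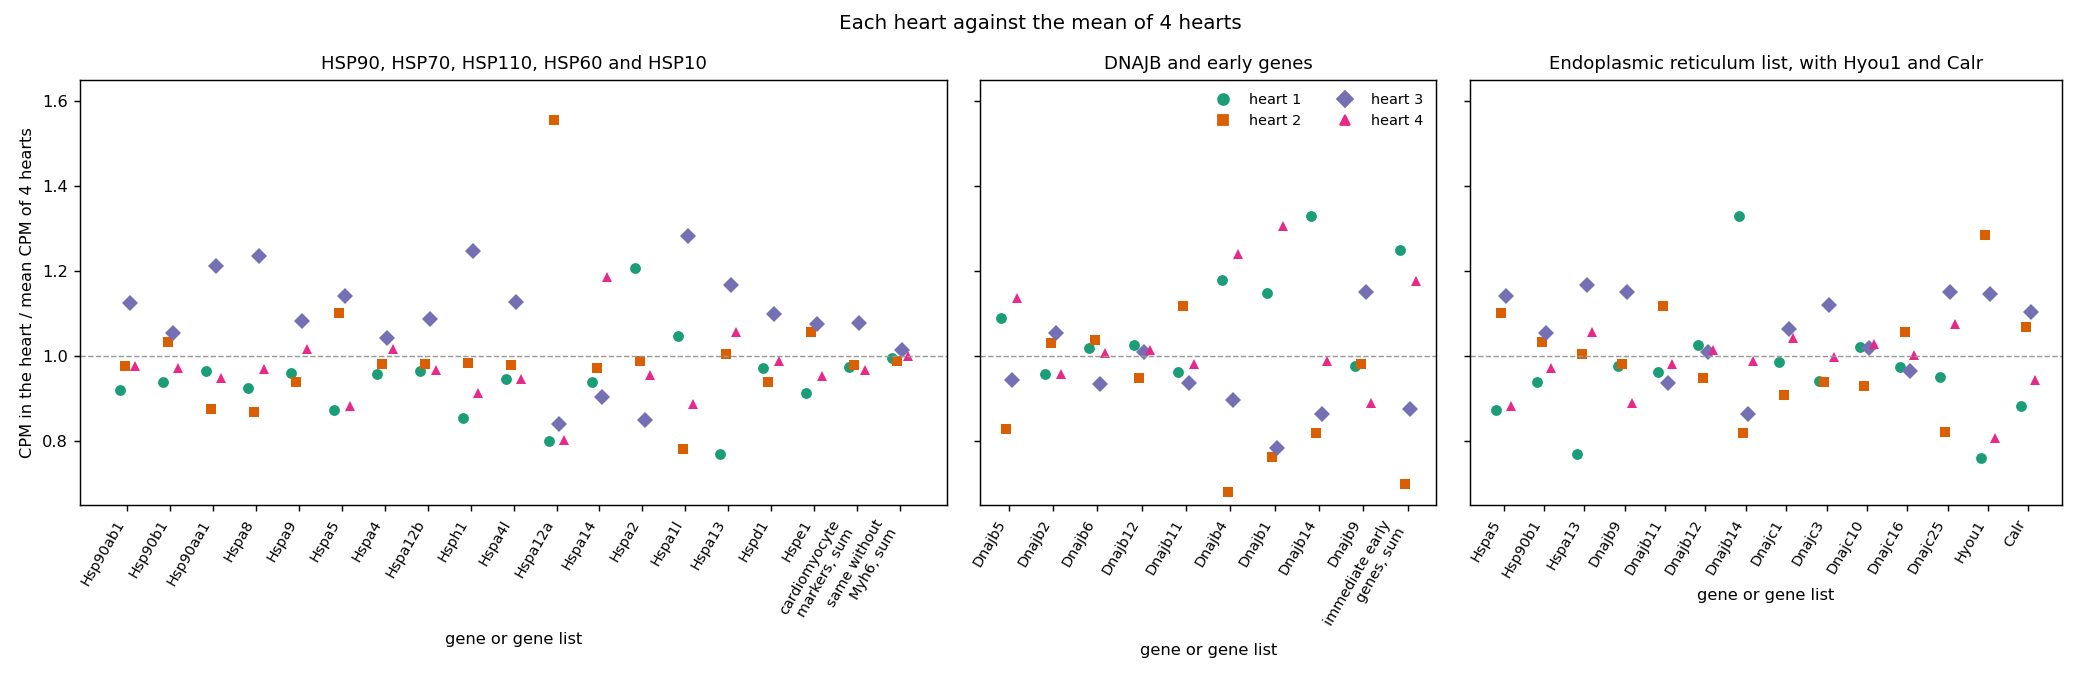
CPM in each heart divided by the mean of 4 hearts, for all 17 tested genes of the HSP90, HSP70, HSP110, HSP60 and HSP10 families with the sum of cardiomyocyte markers with and without Myh6 (left), all 9 tested DNAJB genes with the sum of immediate early genes (middle), and the 12 genes of the endoplasmic reticulum list with Hyou1 and Calr (right). Heart 3 is highest for 14 of the 17 genes on the left, all but Hspa12a, Hspa2 and Hspa14, and hearts 1 and 4 are the highest for 5 of the 9 DNAJB genes. On the right 3 of the 12 listed genes are higher in hearts 2 and 3 and another 3 in hearts 1 and 4.

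Cochaperones that work with HSP90 and HSP70 included 1 gene that was called. Of 35 genes listed and tested, edgeR called Fkbp5 alone, against 0.396% of all genes tested. At an unadjusted p under 0.05 there were 4, against 5.96% of all genes tested. Fkbp5, which binds HSP90 in steroid receptor complexes and is induced by glucocorticoids, had 79.0, 25.2, 50.5 and 81.8 CPM (edgeR adjusted p = 0.0153), with heart 2 lowest. Its edgeR adjusted p was 0.110 without heart 2, 0.0214 without heart 3 and 0.993 in hearts 1 and 4 alone. The most abundant of the list were Smyd1, a methyltransferase that works with the myosin chaperones, at 449 ± 11.4 CPM, Fkbp4 at 404 ± 17.4 CPM and Calr at 338 ± 35.1 CPM (SD, n = 4). The cytosolic chaperonin and prefoldin, 14 genes that include Cct7 at 112 ± 2.88, Cct5 at 102 ± 3.60 and Cct2 at 93.2 ± 5.54 CPM, summed to 680.1, 668, 720.2 and 697 CPM, and of 13 tested edgeR gave 0 an unadjusted p under 0.05.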

How the data were processed

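The authors deposited raw counts of reads per gene symbol, 1 file for each heart. Libraries were single-end and unstranded, per the labels' protocols. The build mm10 and the tools HTSeq, edgeR, DESeq, Bowtie2 and TopHat2 2.0.10 stand in the submitters' processing notes, with no roles. Neither annotation nor counting mode is given in the sources used here. The 5 closing rows that name no gene, 8.96 to 9.30% of listed reads, were left out.

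CPM was computed per heart over all gene counts. Gene models were GENCODE M21 on GRCm38, the assembly of mm10. All 79 symbols matched. Spread was tested in edgeR 4.0.16 (R 4.3.3) with an intercept alone, TMM factors and a robust prior, on 3 residual and 7.28 prior degrees of freedom, for genes averaging 1 CPM or more, with Benjamini-Hochberg adjustment over them. Pair ratios had 0.5 added to each count. limma 3.58.1 and DESeq2 1.42.0 served as alternatives.

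Nothing in the labels says that each library is a separate animal, so p-values measure only the spread between these samples, which may be technical. Genes and lists were chosen with earlier results of these data known. Any gene of the families could be named. Values in every heart were given for the 3 most abundant of each family, genes of the 12 pairs, and those with the largest or smallest variance ratios. Protein sequences were not used here.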

Additional observations from a re-analysis of the deposited data

Results flagged for a closer look

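Of 88 sets of 4 values checked, covering 67 genes, 8 family sums, the sum of all genes and 12 pair ratios, 7 had a single heart standing apart from the rest. Chance alone gives about 1 set in 20, and 6.02% of all genes tested stood apart in this way. Hspa12a had 27.7 CPM in heart 2, against 14.3 to 15.0 CPM in the other hearts. Its relative Hspa12b had 65.9 CPM in heart 3, against 58.5 to 59.5 CPM elsewhere. Dnaja1 was low in heart 1, at 25.0 CPM against 27.7 to 28.2 CPM, and Dnajc10 low in heart 2, at 16.4 CPM against 18.0 to 18.1 CPM. The summed level of HSP60 and HSP10 was 252 CPM in heart 3, against 221 to 225 CPM. Small heat shock proteins summed to 5855 CPM in heart 2, against 6845 to 6943 CPM. The log2 ratio of Hspb7 over Cryab per kilobase was -0.91 in heart 3, against -0.59 to -0.55.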

How the results depend on the processing

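The count of chaperone genes called more variable was 0 as reported and under each alternative but the one with no filter on low counts, where it was 3. The count over all genes was 49. It became 258 with no filter, 10 with a prior that was not robust, 129 as DESeq2's dispersion outliers and 0 in hearts 1 and 4 alone, and ran from 37 to 65 with 1 heart left out. The cause was not tested. The summed level became 15682 CPM without Rn45s in the total, and 13376 to 14042 CPM with 1 heart left out. The share of genes at or above the minimum was 86.1% at 0.5 CPM and 79.7% at 5 CPM. The ratios of 3 pairs changed sign with the length used: by counts alone Hspb7 over Cryab was 0.25, Hspb8 over Bag3 -0.17 and Dnajb4 over Dnajb1 0.91, and by the longest transcript Dnajb4 over Dnajb1 was 0.20. The other 9 pairs kept their sign under every length, added count and left-out heart tried. None of these settings allows for windows shared with other genes. The order of hearts by scaling, hearts 2 and 3 alone, and heart 3 against the rest (30 to 32 genes highest with 1 other heart left out) were chosen after seeing the data, as were the fits of Fkbp5 and the immediate early genes with hearts left out and the marker sum without Myh6. No paired analysis was possible because there is a single group. Depth limits the 12 genes under 1 CPM.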
